A study of Drosophila melanogaster with 3 samples.

Results

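The sarcomere genes encode the contractile machinery of muscle and its closest regulators, and their contact with Smox was read from chromatin of whole Drosophila white prepupae, animals at the moment of puparium formation. The set holds 33 genes among 13945 protein-coding genes. They were taken by name from a list written for this work, with 32 found under their current symbol and Unc-89 under its annotated symbol Obsc. By role they are 8 genes of the thick filament and its partners, 14 of the thin filament, 7 of the Z-disc and elastic filament, 1 nuclear anchor and 3 regulators. All animals, of both sexes pooled, came from 1 line that carries a C-terminal GFP fusion of Smox, and the fusion was precipitated through its GFP. There were 3 biological replicates of this 1 group, so no condition is contrasted with another. Each replicate has a list of 30000 regions ordered by the score of the authors' peak caller, rank 1 being the strongest. A pooled list has the same length, and its strongest 6622 regions form the reproducibility-thresholded list. No read counts accompany the lists, so the sequencing depth is unknown. Because the whole animal was used, the lists do not say in which tissue a site was occupied.

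Smox is the SMAD protein that enters the nucleus when Activin-type ligands activate the receptor babo. In muscle, thick filaments of myosin slide along thin filaments of actin, tropomyosin and troponin. The thin filaments are anchored at the Z-disc, where α-actinin and PDZ-LIM proteins cross-link them, and giant elastic proteins tie the Z-disc to the thick filament. In the Drosophila white prepupa, larval muscles are about to be removed or remodelled and the precursors of adult muscle are set aside.

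Smox-GFP summits lay at a minority of the sarcomere genes, and these were mostly long genes. A gene is called bound here when a thresholded summit lies within 1 kb of any annotated transcript start. By this rule 7 of 33 members were bound, which is 21.2% with an exact 95% binomial interval of 8.98 to 38.9% that covers counting error only. Among all protein-coding genes 18.9% were bound. The bound members were Msp300, tmod, Zasp52, Actn, Tm1, Mef2 and sls. By role, 3 of 7 Z-disc and elastic filament genes were bound (42.9%, exact 95% interval 9.90 to 81.6%). So were 2 of 14 thin filament genes (14.3%), the 1 nuclear anchor and 1 of 3 regulators, counts too small to read as a pattern of role. A thresholded summit lay inside the gene body of 8 of 33 members, against 12.5% of all protein-coding genes. Both shares for the members were read beside these backgrounds with no test. Counting gene body and 1 kb flanks together, 10 of 33 members (30.3%) held all 26 thresholded summits of the set and 23 held none, while 25.2% of all protein-coding genes held at least 1.

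When each replicate list was limited to its strongest 6622 regions, 7, 8 and 8 members were bound in replicates 1, 2 and 3 (7.67 ± 0.577, SD, n = 3), a mean share of 23.2%. In the same lists 20.7%, 20.6% and 22% of all protein-coding genes were bound, so the members' shares lay near the background. The members bound in all 3 replicates were 7 of 33, or 21.2% with an exact 95% interval of 8.98 to 38.9%, beside 15.3% of all protein-coding genes, and they were the same 7 genes. Over the whole lists, 17 of 33 members (51.5%, exact 95% interval 33.5 to 69.2%) had a region of each replicate list in the gene or within 1 kb, beside 39.4% of all protein-coding genes. The median rank of the strongest regions of these 17 was 4087, 5216 and 3412 in replicates 1, 2 and 3. For the 5501 protein-coding genes with a region in all 3 lists these medians were 4293, 4334 and 4214. The medians of the members lie on both sides of those of all genes. They differ more between replicates, but they rest on 17 genes in place of 5501, so this spread is not read as a trait of the members. Another 6 members, Act88F, TpnC73F, TpnC47D, Zasp66, Mlp84B and Mlp60A, had no region of any replicate list, a state shared by 30.6% of all protein-coding genes.

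**Figure D1:**
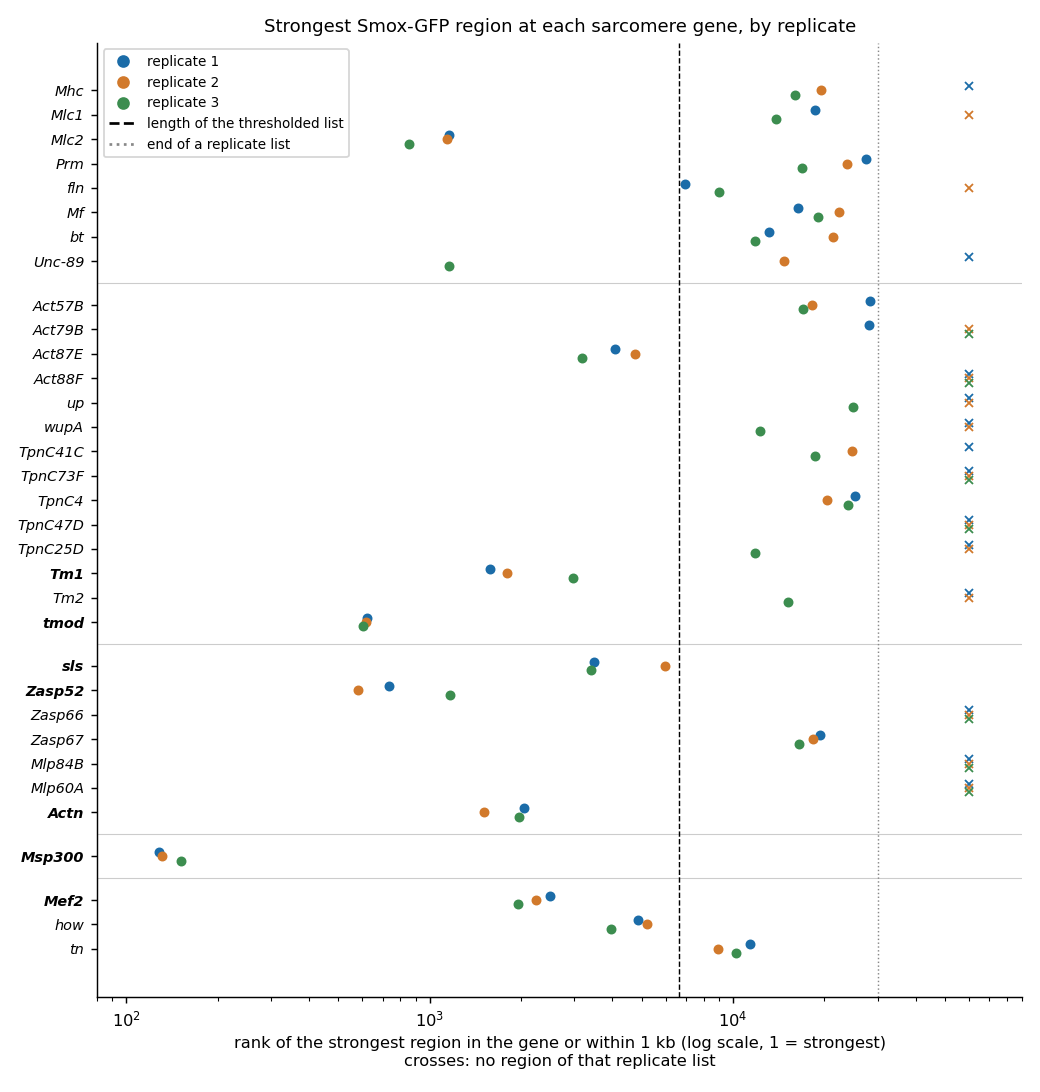
Rank of the strongest region in the gene or within 1 kb for each of the 33 sarcomere genes (rows, grouped by role from thick filament at the top to regulators at the bottom), with 1 point per replicate on a log scale and bound members in bold. Msp300 has the strongest region of the set in every replicate, with ranks of 128, 131 and 152, and crosses mark replicate lists with no region at the gene.

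Msp300 carried the strongest site. This gene on chromosome arm 2L (Release 6, chr2L:5100877-5207002, plus strand) encodes a giant nesprin that tethers nuclei to the cytoskeleton and to Z-discs. Its strongest summit ranked 128, 131 and 152 in replicates 1, 2 and 3 (137 ± 13.1, SD, n = 3) and 130 in the pooled list. The summit lay 332 bp upstream of an internal transcript start and 7303 bp into the gene. A weaker summit, 44865 bp into the gene and 644 bp upstream of another start, ranked 1440, 1064 and 1716. Both sites were thus recovered in all 3 replicates, the first within the strongest 152 regions of each list.

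The sequences under the sites of Msp300 are shown because both hold a MEF2 site, the A/T-rich element read by the muscle factor encoded by Mef2, and the stronger one also holds a SMAD box. Each run is the 151 bp centred on the summit, on the plus strand of the RefSeq Release 6 genome, with the SMAD box GTCT (AGAC on the other strand) and the longer MEF2 site in capitals.
Msp300, stronger summit, chr2L:5108105-5108255: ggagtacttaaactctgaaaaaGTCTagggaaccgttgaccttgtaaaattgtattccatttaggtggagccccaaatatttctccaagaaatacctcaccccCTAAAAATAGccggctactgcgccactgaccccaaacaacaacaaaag
Msp300, weaker summit, chr2L:5145667-5145817: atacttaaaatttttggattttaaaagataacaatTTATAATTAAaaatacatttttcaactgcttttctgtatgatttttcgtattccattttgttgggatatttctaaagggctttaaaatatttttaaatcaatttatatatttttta
The stronger window has 43.0% G and C, whereas the weaker has 17.9%, the lowest of the 26 windows. MEF2 sites occurred in 3 of the 26 member windows, or 11.5%, and in 10.2% of the 6600 thresholded windows on the nuclear chromosomes, so the shares differ little.

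Among the 14 thin filament genes only tmod and Tm1 were bound. The gene tmod encodes tropomodulin, which caps the pointed ends of actin filaments. Its strongest summit ranked 624, 619 and 603 in replicates 1, 2 and 3 (615 ± 11, SD, n = 3). It lay 414 bp upstream of the most distal of the 9 transcript starts, 38136 bp into the gene. The other summits of tmod ranked 3216, 4307, 5379 and 5585 in the pooled list. The summit at rank 4307 lay 449 bp upstream of the first start and had ranks of 4870, 7822 and 3424. It was nearer, at 297 bp, to a start of the noncoding gene lncRNA:CR45552 and fell inside lncRNA:CR45553. The summit at rank 5379 had replicate ranks of 4526, 10505 and 6737, and that at 5585 ranks of 8141, 8699 and 6473. Of the 5 sites of tmod, the distal promoter therefore stood far ahead of the rest in each replicate.

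Tm1 encodes a tropomyosin, the coiled-coil protein that lies along actin. Its summit ranked 1580, 1800 and 2962 in replicates 1, 2 and 3 (2114 ± 743, SD, n = 3) and lay 253 bp upstream of an internal start, 2898 bp into the gene. Neither leading window of tmod or Tm1 holds a SMAD box, and the window of Tm1 is among the poorest in G and C, at 19.2%. They are shown, on the plus strand of the same genome, as strong member sites without the element that SMAD proteins are known to read, so no base is in capitals.
tmod, strongest summit, chr3R:30570668-30570818: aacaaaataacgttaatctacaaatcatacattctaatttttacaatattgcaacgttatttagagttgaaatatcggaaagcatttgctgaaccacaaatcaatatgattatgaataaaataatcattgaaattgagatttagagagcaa
Tm1, chr3R:15281043-15281193: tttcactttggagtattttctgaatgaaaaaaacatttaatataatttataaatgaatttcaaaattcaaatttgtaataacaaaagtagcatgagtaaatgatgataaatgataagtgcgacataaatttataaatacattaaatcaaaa
A SMAD box occurred in 13 of 26 member windows (50%) and in 41.2% of all thresholded windows, with both strands searched.

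The remaining 12 thin filament genes had no summit near a start. They comprise the actins Act57B, Act79B, Act87E and Act88F, the troponin T and troponin I genes up and wupA, the 5 troponin C genes and the tropomyosin gene Tm2. Act87E was the one with a thresholded summit in reach. It lay 2098 bp past the nearer start, in the flank downstream of the gene, with ranks of 4087, 4761 and 3183 (4010 ± 792, SD, n = 3). This window holds 2 SMAD boxes, on opposite strands, and is shown for them (plus strand, same genome, boxes in capitals).
Act87E, downstream summit, chr3R:13428470-13428620: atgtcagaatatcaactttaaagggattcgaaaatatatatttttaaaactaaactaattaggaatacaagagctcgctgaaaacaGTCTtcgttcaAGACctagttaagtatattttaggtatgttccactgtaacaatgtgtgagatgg
The other 11 had at best a region of rank 11849, in replicate 3 at TpnC25D, outside the strongest 6622 of every replicate. TpnC41C lay 241 kb from the nearest thresholded summit, the longest distance among members.

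None of the 8 thick filament genes was bound, for which the exact 95% interval reaches 36.9%, beside 18.9% of all protein-coding genes. All 8 had a region of at least 1 whole replicate list in the gene or within 1 kb, while 30.6% of all protein-coding genes had none. A region of every list lay at 4 of the 8 (50%, exact 95% interval 15.7 to 84.3%), beside 39.4% of all protein-coding genes. Mhc, the single muscle myosin heavy chain gene, had no region in replicate 1, and its best regions ranked 19562 and 16064 in replicates 2 and 3. The nearest thresholded summit lay 45.7 kb from a start of Mhc. Mlc1, Prm, Mf and bt, which encode the alkali light chain, paramyosin, myofilin and projectin, likewise had no region inside the strongest 6622. Their best rank was 11854, at bt in replicate 3.

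Mlc2, which encodes the regulatory light chain, was the exception in the gene body, and its summits lie at its 3′ end beside a neighbour. The summit in the body ranked 2781, 2865 and 4267, and a stronger one just past the 3′ end ranked 1163, 1137 and 854 (1051 ± 171, SD, n = 3). They lay 3013 and 3710 bp from the start of Mlc2, but 331 and 366 bp from a start of Rsod. The thick filament partner Unc-89 (obscurin) showed a contrast between replicates. A region 241 bp past its 3′ end ranked 1160 in replicate 3 and overlapped one of rank 14786 in replicate 2, with none in replicate 1 or in the pooled list. A region upstream of fln, the flightin gene, ranked 6962 and 8996 in replicates 1 and 3 and was missing in replicate 2. Neither gene had a thresholded summit.

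Of the 7 Z-disc and elastic filament genes, 3 were bound. Zasp52, a PDZ-LIM gene whose product binds α-actinin, had its strongest summit 700 bp upstream of the first start, with ranks of 735, 579 and 1170 (828 ± 306, SD, n = 3). This position also falls in an intron of the overlapping gene tun. The same interval carried another summit at pooled rank 4237. The gene had 2 more summits in its introns, at pooled ranks 2397 and 3888, and 1 at rank 2030 past its 3′ end. The 3 intronic and downstream sites were all within the strongest 6622 of each replicate, with ranks between 1504 and 4608. No other gene of the set had as many regions in the whole replicate lists, at 25, 16 and 19 in replicates 1, 2 and 3.

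Actn encodes α-actinin, the cross-linker of thin filaments at the Z-disc. Its strongest summit ranked 2048, 1507 and 1978 (1844 ± 294, SD, n = 3), 816 bp inside the gene. That summit lay 183 bp from a start of usp, which encodes the partner of the ecdysone receptor and overlaps this end of Actn. The gene CG4313 also starts here, so Actn, usp and CG4313 cannot be separated by position. A summit 208 bp upstream of Actn ranked 5661, 3244 and 3741 and was equally 208 bp from a start of usp. Another, at pooled rank 4630, lay 616 bp inside Actn and 173 bp from a start of CG4313, and overlapped the same replicate regions as the strongest. Only the weakest, 439 bp upstream of an internal start of Actn and 4254 bp from usp, was away from the shared promoter, and it ranked 4773, 9189 and 15289, near the end of the thresholded list at 6611. Of the 4 sites that made Actn bound, 3 were thus within 1 kb of a start of usp as well.

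The titin-like gene sls had 1 summit, 266 bp upstream of its start, with ranks of 3496, 5974 and 3412 (4294 ± 1456, SD, n = 3). It lay outside the gene, whose body of 75931 bp held no thresholded summit. Of the other members of this group, Zasp67 had a best rank of 16454, and Zasp66, Mlp84B and Mlp60A had no region in any replicate list.

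Of the 3 regulators, Mef2 and how held thresholded summits and tn held none. Mef2, the MADS-box factor that drives muscle differentiation, had a summit 62 bp upstream of its first start at ranks 4330, 4108 and 3817 (4085 ± 257, SD, n = 3). That summit, the only one within 1 kb of a Mef2 start, was also 629 bp from a start of the neighbour Pal1. Mef2 had 3 further summits in its body, at pooled ranks 2395, 2687 and 2912. The strongest of these lay 4022 bp into the gene and ranked 2670, 2798 and 1950. Just outside the 1 kb window, 1029 bp upstream of Mef2, lay a much stronger site, with ranks of 39, 66 and 44. It was 191 bp from a start of the divergent neighbour Pal1, an amidating lyase gene. The nearest member sites inside the window were at 899 bp (Zasp52) and 816 bp (Actn).

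The RNA-binding protein gene how had a thresholded summit 1760 bp into the gene, at ranks 4867, 12088 and 3960, and so was not bound by the rule. Right at its start, however, regions of rank 10613, 5216 and 4829 lay 89, 154 and 141 bp upstream in replicates 1, 2 and 3. The pooled list had no region there, and its nearest, 379 bp downstream of the start, ranked 22362. The gene tn, which encodes a TRIM-family protein that keeps myofibrils intact, had best ranks of 11360, 8917 and 10230 and no thresholded summit.

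**Figure D2:**
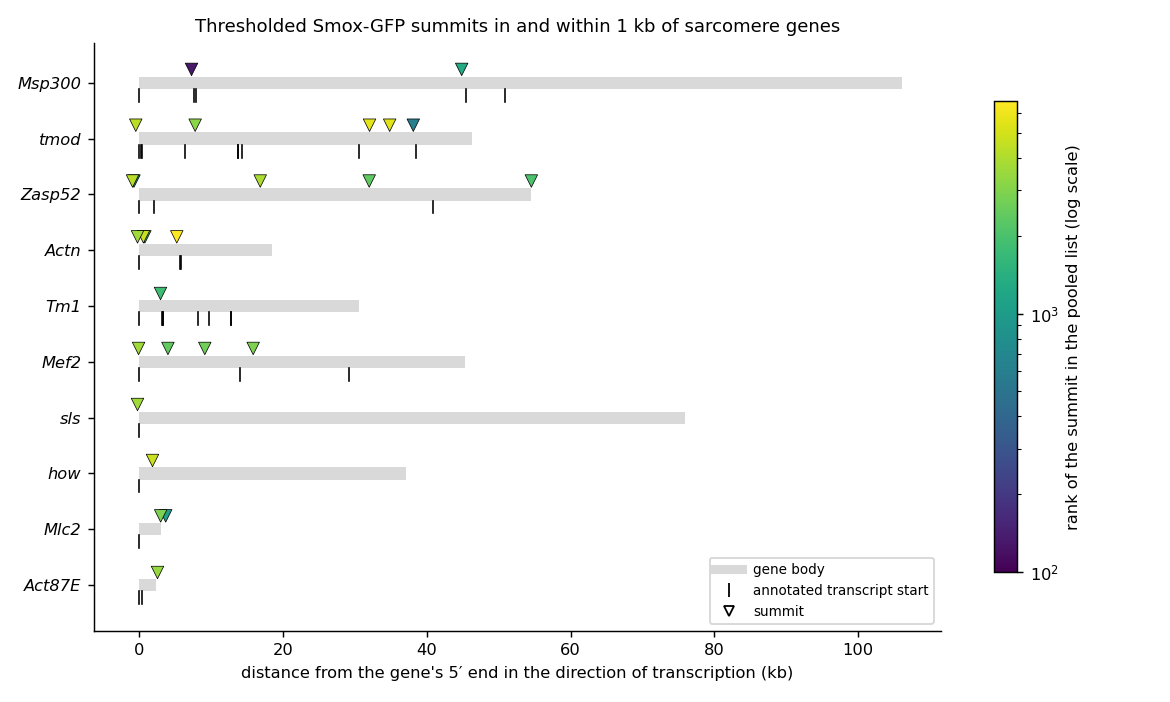
Thresholded summits (triangles, coloured by rank in the pooled list on a log scale) along the 10 sarcomere genes that had one, drawn from each gene's 5′ end in kb with the gene body in grey and transcript starts as ticks. The strongest summits of Msp300 and tmod lie 7303 and 38136 bp into the gene beside internal starts, whereas those of sls and Zasp52 lie upstream of the first start.

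Taking the 26 summits of the set together, 17 lay in a gene body and 13 within 1 kb of a member's start. Because they were taken for lying in or within 1 kb of a gene, their positions were set beside the 5280 thresholded summits that do so for any protein-coding gene. Within 500 bp of some annotated start lay 12 of the 26 (46.2%), against 39.5% of the 5280. Introns held 11 (42.3%), against 54.0%, and 2 (7.69%) were intergenic, against 4.32%. The remaining 1 lay in a 5′ UTR of Mef2, and coding exons held none. No test was run on these shares. For 6 of the 26 the nearest start belonged to another gene, a count with no background over all thresholded summits. In all 3 replicate lists 21 of the 26 overlapped one of the strongest 6622 regions, 2 did so in 2 lists and 3 in 1 list. The thresholded list was itself chosen for agreement between replicates, and the same share over all thresholded summits was not counted. The 21 include summits at Zasp52 and Actn that took their ranks from the replicate regions of a stronger neighbouring summit. Whether they also overlapped weaker replicate regions of their own was not recorded. Replicate summits lay a median of 12 bp from the pooled summit, and at most 276 bp. The largest shifts were those of the Actn and Zasp52 summits matched to the replicate regions of a stronger neighbour. Apart from these the largest was 133 bp, at tmod.

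**Figure D3:**
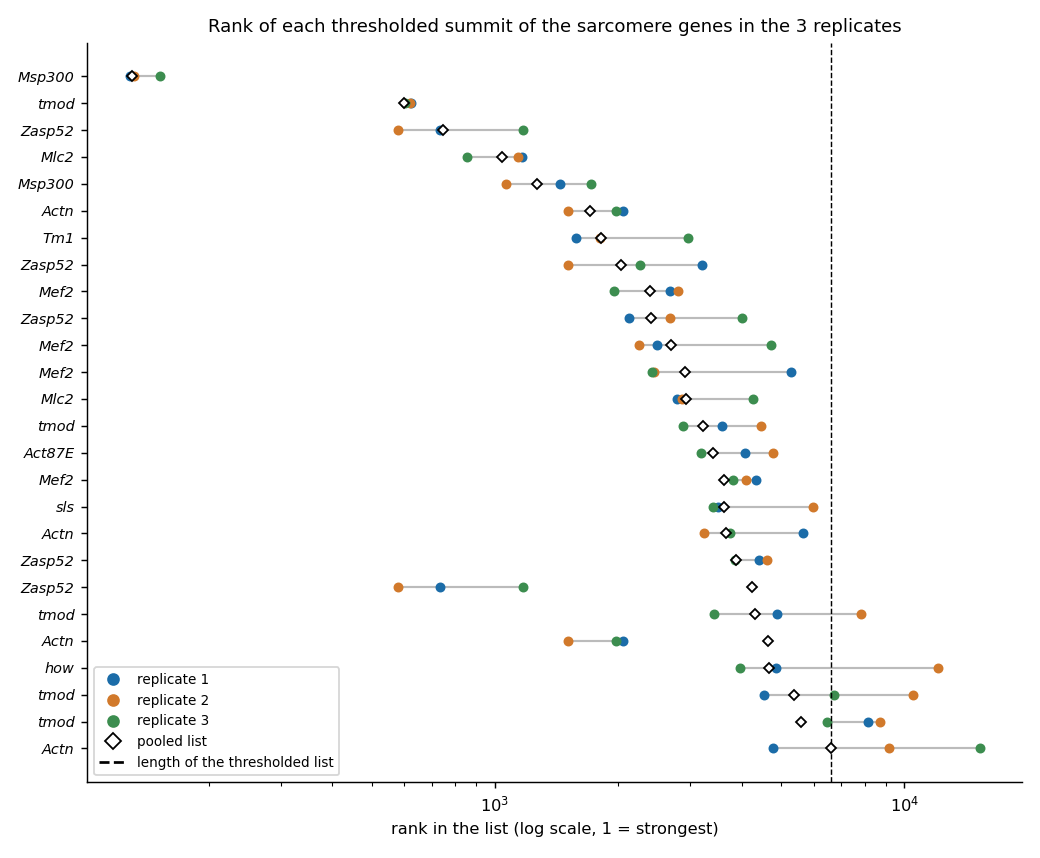
Rank of each of the 26 thresholded summits in the 3 replicates (points) and in the pooled list (diamonds), on a log scale, strongest at the top and named by gene. A pair of summits with the same interval at Zasp52, and a pair with overlapping intervals at Actn, take the rank of the same replicate region. The spread between replicates is widest for the weakest site of Actn, from 4773 to 15289.

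The bound members were among the longer genes of the set. Bound members had a median length of 46299 bp, and the 26 others 4928.5 bp. Among all protein-coding genes the medians were 3936 bp for bound and 1959 bp for other genes. The rule takes any start, and the median number of starts was 3 for bound members, 2 for all members and 1 for all protein-coding genes. Of the 14 members under 5 kb none was bound, against 14.3% of all protein-coding genes of that length. Of the 9 members of 5 to 20 kb, 1 was bound, against 30.8% of all genes of that length. Of the 10 members over 20 kb, 6 were bound, against 37.5%. Gene body summits gave 1 of 14, 1 of 9 and 6 of 10 members in the same classes, and the shares over all genes were 4.02%, 28.9% and 60.1%. In the gene body the long members thus had the share of other long genes. The members held 2.64 thresholded summits per 100 kb of gene body, and all protein-coding genes 4.40. The median distance from a start to the nearest thresholded summit was 12.6 kb for members and 8.71 kb for all protein-coding genes.

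**Figure D4:**
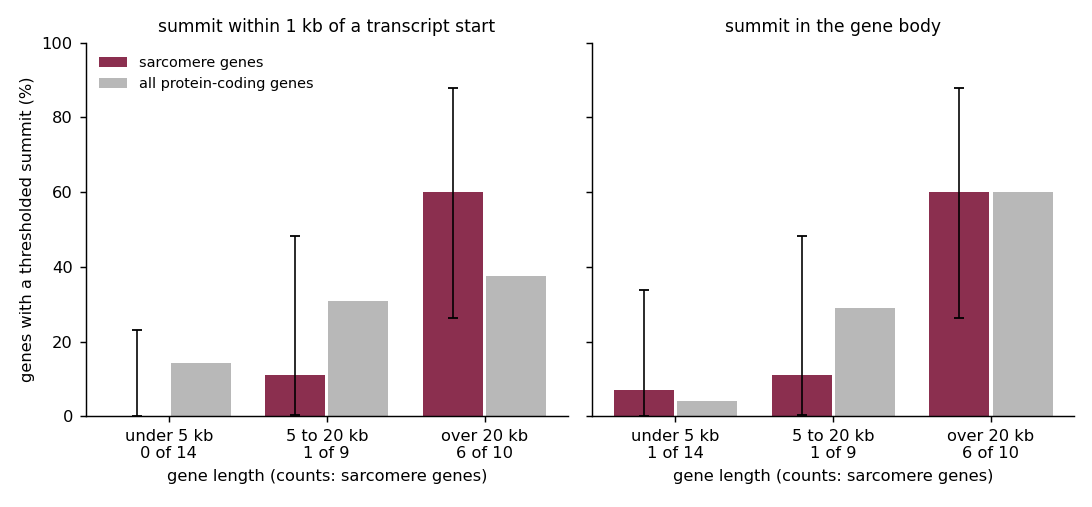
Share of genes with a thresholded summit within 1 kb of a transcript start (left) and in the gene body (right), by gene length, for the sarcomere genes (bars with exact 95% binomial intervals) and all protein-coding genes (grey). At starts 0 of 14 members under 5 kb, 1 of 9 of 5 to 20 kb and 6 of 10 over 20 kb were bound, and the intervals are wide in every class.

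Further sequence elements were counted in the 151 bp windows on both strands, as matches of letters only. The GC-rich SMAD element GGCGCC occurred in 3 of 26 member windows, 2 of Mef2 and 1 of Actn, or 11.5%, against 1.53% of all thresholded windows. The E-box CANNTG, read by bHLH factors of the muscle lineage among others, occurred in 16 (61.5%), against 46.7%. TATAAA occurred in 12 (46.2%), against 32.0%, and TAATTA in 7 (26.9%), against 14.8%. Both can fall inside a MEF2 site, as TAATTA does in the weaker window of Msp300. GATAA occurred in 9 (34.6%), against 33%, and GAGAG in 3 (11.5%), against 14.6%. Member windows had 35.4 ± 8.18% G and C (SD over 26 windows) and all thresholded windows 33.3 ± 7.39%. Windows of 1 gene are not independent, and 1 window moves a member share by several percentage points.

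Other muscle genes were set beside the sarcomere genes. Of 40 genes for myoblast fusion, muscle identity, RNA processing, attachment, excitation and myosin folding, 7 were bound and 16 had a summit in the body. These are 17.5% and 40%, against 18.9% and 12.5% of all protein-coding genes. The strongest summits at starts were those of Ank2 at pooled rank 260, mbc at 793, mbl at 1017, blow at 2382 and unc-45 at 4582. In the body the strongest were those of mbl at 138, kirre at 274, mew at 462, mbc at 636 and rols at 848. Of the 40 genes, 21 were over 20 kb long. A body summit lay in 13 of these 21, against 60.1% of all protein-coding genes of that length. At starts, 6 of 10 sarcomere genes over 20 kb were bound, beside 4 of 21 of the other muscle genes of that length. For all protein-coding genes of that length the share was 37.5%. The difference between the lists was not tested.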

How the data were processed

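ChIP-seq peak lists of 3 biological replicates (numbers per the labels) were used on dm6. Per the file listings, the authors called peaks and background regions on each replicate and on the pooled replicates with a control alignment, and derived the thresholded list by irreproducible discovery rate. Aligner, peak caller and cutoff were not given in the sources used here. The deposited lists hold a score per region, whose scale is not stated and which served only for ranking, a −log10 q-value and a summit offset. Replicates 1 and 2 shared 292 identical intervals, none with the same score.

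Summits were placed on the Ensembl release 115 annotation of BDGP6.54, without transposable elements, with Python 3 scripts (numpy, pandas). Overlap needed 1 bp, and a summit of several overlaps took the strongest replicate region. Positions within 500 bp of a start were classed as promoter before exons, introns and intergenic sequence. Shares were set beside all protein-coding genes, and no test was run. The counting steps were tested on simulated summits. Named are all members by the rule, in full if bound or with 3 or more body summits, and otherwise the 5 strongest of the other muscle genes per count. The members and lists were chosen with earlier results of these data known. Alternatives were other list lengths, ranking, replicate support, windows and flanks, and leaving out each replicate. The dm3 lists were not used here.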

Additional observations from a re-analysis of the deposited data

How the results depend on the processing

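The count of bound members was 7 and stayed between 5 and 8 under 8 of 9 alternatives, including windows of 500 bp and 2 kb. However, 1 of the 8, the top of the pooled list by score, is the thresholded list itself, so its count could not differ. With the strongest 1000 thresholded regions it was 3 (Msp300, tmod and Zasp52), the body count was 2 in place of 8, and the summit count 3 in place of 26. With the list cut at its middle rank the summit count was 14, and without flanks 17. Taking only the outermost 5′ end as start left 5 bound members, without Msp300 and Tm1, whose sites lie at internal starts. The share over all protein-coding genes was not counted under that setting. Members bound in every replicate list numbered 7 to 8 when a replicate was left out, how being added without replicate 1. Leaving out a list can only keep or raise this count, so its not falling says nothing about stability. The length of the replicate lists could move it either way. A cut shorter than the strongest 6622 gave 5, with Mef2 and sls lost, and a longer cut gave 7. The whole lists gave 9, with how and tn added. The median over 17 members of the mean rank of their strongest region was 4294. It was higher whenever a replicate was left out, at 6333 without replicate 1, 4413.5 without replicate 2 and 4735 without replicate 3. These medians cover 20, 19 and 17 members. Without replicate 1 or 2, members with no region in the omitted list are added, so the sets of genes differ. No paired analysis was possible because there is 1 group. Depth is unknown, the scores have no stated scale, and 33 genes in classes of 9 to 14 leave wide intervals.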

Other observations

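Among the strongest 6622 regions of each replicate, those without an overlapping region in the pooled list lay at 5 places in or within 1 kb of members. Those at the start of how, in replicates 2 and 3, are given above. In replicate 3, a region of rank 5110 lay 2778 bp from a start of Tm1, and one of rank 5634 lay 7102 bp into how and overlapped one of rank 9633 in replicate 1. The region past the 3′ end of Unc-89 is described above. At Msp300 a region of rank 2553 in replicate 2 began just past the end of the pooled region of the weaker summit. Over the genome, 424, 376 and 570 of the strongest 6600, 6596 and 6605 nuclear regions of replicates 1, 2 and 3 overlapped no pooled region (6.42%, 5.70% and 8.63%). Of these, 89, 84 and 88 overlapped strong regions of both other replicates.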
